A study of Mus musculus with 12 samples.

Results

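Transcripts of a mouse lymphoma line given interferon-γ (IFN-γ) for 1 h, and then an antibody that neutralises it, were compared with those of unstimulated cells. The comparison used 6 of the 12 RNA-seq libraries of the study, 3 in each group, and all 14299 of 53379 genes that passed a filter on low counts. The cells are an Eµ-myc B cell lymphoma line from the C57BL/6 strain, in which an immunoglobulin heavy chain enhancer drives Myc in the B lineage. Every group carries that transgene, and the results describe a single line. Stimulated cells received recombinant mouse IFN-γ at 5 ng/mL, the antibody (clone XMG1.2) was added at 50 µg/mL, and collection took place 24 h after stimulation. The 2 other groups were exposed for 6 h and for 24 h. Below, 1 h, 6 h and 24 h name the length of exposure, not the time of collection. The labels do not say whether unstimulated or 24 h cells received antibody, when unstimulated cells were collected, or whether the 3 samples of a group were separate cultures. A difference made by the antibody and a difference made by IFN-γ therefore cannot be told apart here, and p-values cover only the spread within these trios of samples, which may be technical.

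IFN-γ binds the receptor subunits Ifngr1 and Ifngr2, whose kinases Jak1 and Jak2 start a signal that reaches GAS elements in DNA. An early target is Irf1, a transcription factor that binds interferon response elements in a second set of genes. That set includes the MHC class I heavy chains, their partner β2-microglobulin, the peptide transporter and immunoproteasome, and a large family of interferon-inducible GTPases. MHC class I displays peptides from inside the cell to CD8 T cells, and the regulator Nlrc5 acts on its promoters.

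The 6 libraries held 49440358 to 60966363 counts, and mitochondrial transcripts made up 3.79% to 4.27% of them in unstimulated and 3.84% to 4.85% in 1 h libraries. All 8 B cell markers examined were present, with a summed level of 2695 to 2776 CPM (gene counts relative to the scaled total of a library) in unstimulated and 2734 to 2758 CPM in 1 h libraries. The summed level of 6 precursor B cell markers was 401 to 423 CPM against 491 to 517 CPM, and Rag1 had the largest difference among them, with means of 232 and 324 CPM. Of 6 T and NK cell markers, Cd4, Cd8a and Ncr1 had no count in any of the 6 libraries, and the summed level was 0.561 to 0.968 CPM against 0.947 to 1.16 CPM. Of 5 myeloid markers, Adgre1 had no count, and the summed level was 1.75 to 2.08 CPM in unstimulated and 2.11 to 2.94 CPM after 1 h, nearly all of it Itgam. Of 7 stromal, endothelial and erythroid markers, Col3a1 had no count and Pecam1 gave nearly all of the sum, which was 60.2 to 61.3 CPM against 61.4 to 64.4 CPM. The first principal component of the 6 libraries held 24.0% of their variance. Replicate 2 of each group lay nearest to the other group on it, at -1.94 and 4.17, while the other libraries lay at -21.0 and -18.6 in unstimulated and at 17.99 and 19.3 after 1 h.

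After the 1 h exposure, 60 genes differed from unstimulated cells, 39 higher and 21 lower (edgeR quasi-likelihood test, Benjamini-Hochberg adjusted p under 0.05). These are 0.42% of the genes tested, with 0.273% higher and 0.147% lower. The changes were small: 48 of the 60 were under 1.5-fold, and 3 reached 2-fold, all of them rises. In all 60 the 3 libraries of one group lay above the 3 of the other, as they did in 14.8% of all genes tested. The number depended on single libraries. It was 15 without unstimulated replicate 1, 114 without unstimulated replicate 2 and 21 without unstimulated replicate 3, and 22, 44 and 21 without 1 h replicates 1, 2 and 3. Of the 60 genes, 12 were called in each of these 6 fits and under every other alternative at that threshold: H2-Q5, H2-Q4, H2-K1, H2-D1, Gm1966, Cacna1e, Slco1b2, Atp1b1, Bach2, Irf4, Dusp5 and Ccl9. The other 48 lost their call in 1 or more of the 6 fits. In bulk RNA, more cells that express a gene and more RNA per cell cannot be told apart.

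**Figure D1:**
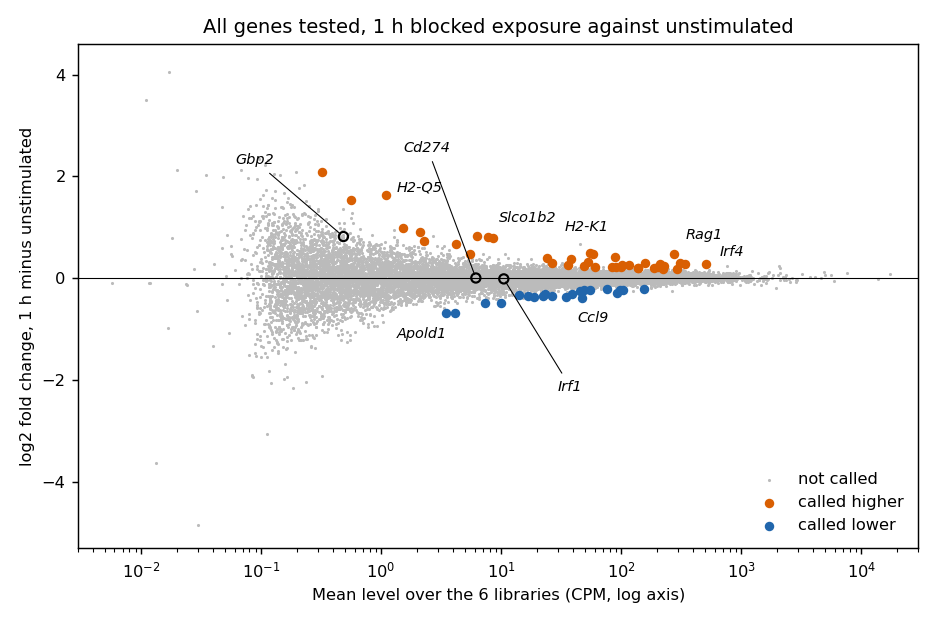
Log2 fold change of each gene tested (1 h minus unstimulated) against its mean level over the 6 libraries in CPM on a log axis, with 39 genes called higher in orange, 21 called lower in blue and 3 uncalled genes circled. The called genes lie close to the zero line at high levels, and Irf1 and Cd274 lie at or near it; 11 genes without a count in the 6 libraries and 1 gene beyond the axes are not drawn.

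**Figure D2:**
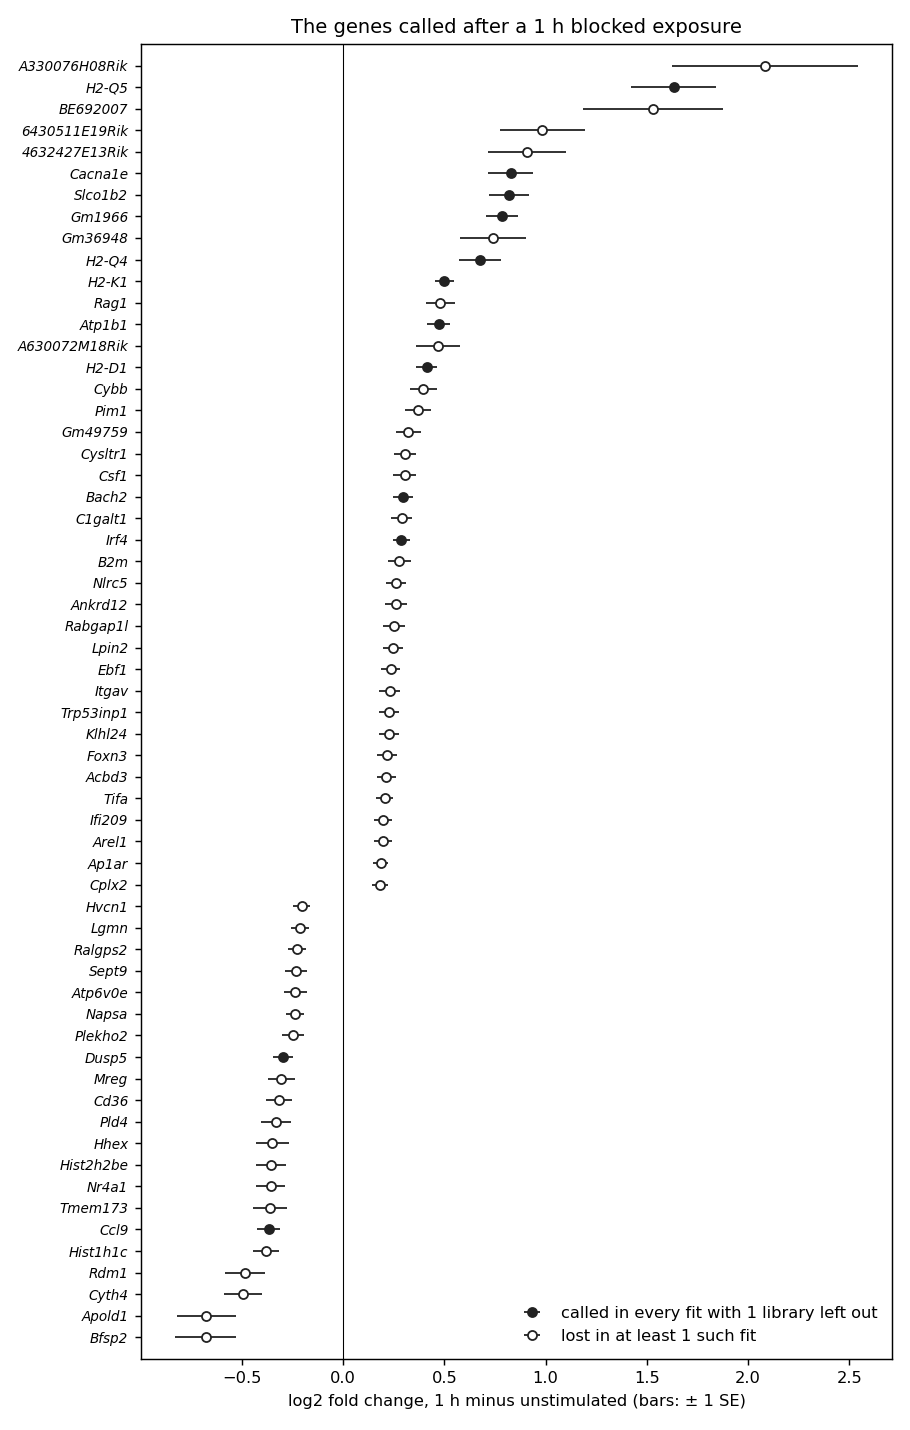
Log2 fold change of the 60 called genes (1 h minus unstimulated, bars ± 1 SE), ordered by size. Filled points mark the 12 genes called whichever of the 6 libraries was left out, and open points the 48 that lost their call in at least 1 such fit.

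The gene with the smallest p-value was H2-K1, 1 of the class I antigen presentation genes. Of 30 genes on the list, 26 were tested and 6 rose, against 0.273% of all genes tested: the heavy chain genes H2-K1, H2-D1, H2-Q4 and H2-Q5, B2m, and Nlrc5. None fell. The other 20 did not pass the test, and the median log2 fold change of the 26 was 0.03, beside 0 for all genes tested.

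H2-K1 (ENSMUSG00000061232.15, chromosome 17, 33996017 to 34000347 on GRCm38, minus strand) encodes the classical heavy chain K. Its level was 46.0, 42.1 and 47.2 CPM in the unstimulated libraries and 66.6, 63.5 and 61.6 CPM in the 1 h libraries. The groups did not overlap, and the mean went from 45.1 ± 2.71 (SD, n = 3) to 63.9 ± 2.55 CPM (SD, n = 3). The log2 fold change was 0.50 ± 0.05 (SE; adjusted p = 9.59e-07 by edgeR). H2-D1 (ENSMUSG00000073411.11, chromosome 17, 35262730 to 35267499), the classical heavy chain D, stood at 81.3, 68.4 and 79.0 CPM in unstimulated and at 103, 103 and 99.0 CPM in 1 h libraries. Its log2 fold change was 0.41 ± 0.05 (SE; adjusted p = 6.9e-05), and its lowest unstimulated library was replicate 2.

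The non-classical class I genes of the H2-Q cluster were expressed at far lower levels. H2-Q4 (ENSMUSG00000035929.11, chromosome 17, 35379617 to 35385290) had 3.24, 2.84 and 3.65 CPM in unstimulated libraries and 5.20, 5.52 and 4.88 CPM after 1 h, a log2 fold change of 0.68 ± 0.10 (SE; adjusted p = 0.000647 by edgeR). H2-Q5 (ENSMUSG00000055413.12, chromosome 17, 35394126 to 35397800), annotated as a polymorphic pseudogene, rested on 22, 32 and 33 counts in unstimulated libraries and 106, 96 and 91 counts after 1 h. It rose 3.10-fold (95% interval 2.30 to 4.18, adjusted p = 6.33e-05), and every 1 h library held more counts than the 3 unstimulated libraries together. Its neighbours H2-Q6 (0.343 ± 0.16 CPM against 0.785 ± 0.27 CPM, SD, n = 3; adjusted p = 0.0834) and H2-Q7 (adjusted p = 0.135) did not pass the edgeR test. Class I genes are close copies of each other, so reads can be shared or lost between them and values of single members are uncertain.

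B2m and Nlrc5 are outside the H2 cluster. B2m (ENSMUSG00000060802.8, chromosome 2, 122147686 to 122153083), the light chain shared by all class I molecules, had 287, 333 and 311 CPM in unstimulated and 395, 368 and 365 CPM in 1 h libraries. Its rise of 0.28 ± 0.06 (log2, SE; edgeR adjusted p = 0.0241) was called with all 6 libraries and without unstimulated replicate 2, and lost without any other of them, where adjusted p was 0.0553 to 0.202; with the trend on GC content removed it was 0.0686. Nlrc5 (ENSMUSG00000074151.13, chromosome 8, 94434356 to 94527272) had 32.7, 32.7 and 32.2 CPM against 38.6, 37.5 and 40.7 CPM. Its rise of 0.26 ± 0.05 (log2, SE; adjusted p = 0.00786) was lost without unstimulated replicate 1 or 3 or 1 h replicate 3, at an adjusted p of 0.0571 to 0.096.

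**Figure D3:**
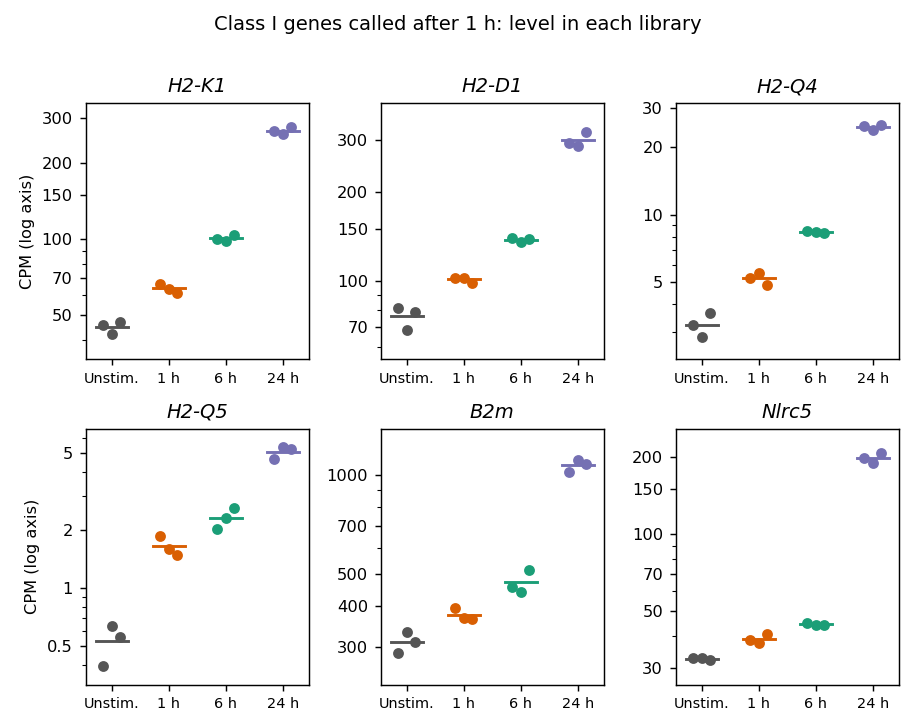
Level of the 6 class I genes called after 1 h in each of the 12 libraries, in CPM on a log axis, by group; points are libraries and bars are means of 3. In each panel the 1 h points lie above the unstimulated points and below the 24 h points, as for H2-K1 with means of 45.1, 63.9, 101 and 267 CPM.

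No other member of the class I list passed the edgeR test. DESeq2 called 8 members, with H2-Q6 and Tap1 added to the 6, and edgeR called 9 with every gene that had a count included. Tap1, a subunit of the peptide transporter, had 16.2, 16.5 and 15.8 CPM in unstimulated and 17.8, 20.4 and 19.5 CPM in 1 h libraries. The groups did not overlap, but the difference of 0.25 ± 0.06 (log2, SE) just missed the threshold (edgeR adjusted p = 0.0531), and it passed under 5 of the other settings and without 1 h replicate 1 (adjusted p = 0.0462). Its partner Tap2 was at 21.3 ± 1.5 and 20.6 ± 1.1 CPM (SD, n = 3; adjusted p = 0.894). The immunoproteasome subunits Psmb8 and Psmb9 had fold changes with 95% intervals of 0.93 to 1.10 and 0.99 to 1.24. The tapasin gene Tapbp, which tethers class I to the transporter, was at 35.9 ± 1.0 and 34.8 ± 0.59 CPM (SD, n = 3; adjusted p = 0.869).

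Promoter sequence is shown for H2-K1, H2-Q4 and B2m, which rose, and for Irf1, which did not pass the test, since all are known interferon targets. The windows come from RefSeq (GRCm38.p6) and run from 190 to 71 bases before the start site, 5′ to 3′ on the gene's strand. They are chr17:34000418-34000537 (minus strand) for H2-K1, chr17:35379427-35379546 (plus strand) for H2-Q4, chr2:122147497-122147616 (plus strand) for B2m and chr11:53769824-53769943 (plus strand) for Irf1. Capitals mark matches, on either strand, to 4 patterns. They are GAS (TTC and GAA with any 3 bases between), the interferon-stimulated response element (ISRE, GAAA and GAAA with any 2 bases between), a shorter interferon regulatory factor element (GAA and GAAA with any 2 bases between) and a κB element (GGGA, any base, T, any base, CCC). The last 2 were chosen after the windows had been seen. No match of one kind overlapped one of another in these windows.
H2-K1: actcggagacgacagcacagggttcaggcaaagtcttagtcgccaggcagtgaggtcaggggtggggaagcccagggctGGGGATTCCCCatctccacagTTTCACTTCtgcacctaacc
H2-Q4: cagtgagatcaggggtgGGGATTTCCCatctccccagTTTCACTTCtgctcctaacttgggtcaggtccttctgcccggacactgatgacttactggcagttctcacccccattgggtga
B2m: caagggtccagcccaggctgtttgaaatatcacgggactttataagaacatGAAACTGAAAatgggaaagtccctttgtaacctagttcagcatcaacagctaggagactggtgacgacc
Irf1: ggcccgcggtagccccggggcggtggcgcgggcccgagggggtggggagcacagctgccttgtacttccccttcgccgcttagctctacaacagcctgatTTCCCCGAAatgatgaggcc

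In H2-K1 and H2-Q4 the κB element stood just before the letters TTTCACTTC, the shorter interferon regulatory factor element on the opposite strand. The same pair of matches was found in the window of H2-D1. Its RefSeq start site lies 364 bases from the GENCODE start of the gene. The H2-D1 stretch overlaps an annotated untranslated region and is not shown. In the stretches shown, B2m held an ISRE match and Irf1 a GAS match. The whole 300-base window of Irf1 also held 1 κB match, outside the stretch shown. Over all 27025 RefSeq windows of the whole 300-base promoter, 8.35% held a GAS, 3.50% an ISRE, 7.59% the shorter element and 1.05% a κB match, and over the 9451 windows of genes tested the shares were 6.62%, 3.04%, 6.00% and 1.30%. Of the 60 called genes, 44 had a window. Among the 30 windows of genes called higher, 3 held a GAS, 4 an ISRE, 6 the shorter element and 4 a κB match, and among the 14 of genes called lower the counts were 1, 0, 0 and 0. The 30 include H2-K1, H2-D1 and H2-Q4, whose windows led to the choice of the shorter element and the κB pattern. Without them, 3 of 27 windows held the shorter element and 1 a κB match. These are matches of letters, not measured binding sites.

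The means of the 6 class I genes that rose after 1 h were higher still at 6 h. Against 1 h, 5 of the 26 class I genes tested were higher at 6 h and none lower, where 0.0979% of all genes tested differed, 0.0839% higher and 0.014% lower. H2-K1 was at 101 ± 2.63 CPM (SD, n = 3), a further log2 difference of 0.66 (edgeR adjusted p = 9.07e-10), and H2-Q4 at 8.41 ± 0.0942 CPM, a further 0.69 (adjusted p = 0.00014). H2-D1 (0.45), Tap1 (0.36) and B2m (0.33) were the other 3, with adjusted p-values of 2.45e-05, 0.00282 and 0.012. Nlrc5 stood at 44.3 ± 0.466 CPM and H2-Q5 at 2.32 ± 0.29 CPM (SD, n = 3), and neither differed from 1 h by the test (adjusted p = 0.207 and 0.752). After 24 h of exposure the means were 267 CPM for H2-K1, 299 CPM for H2-D1, 24.7 CPM for H2-Q4, 5.11 CPM for H2-Q5, 1072 CPM for B2m and 198 CPM for Nlrc5. All 3 exposures were compared with the same unstimulated libraries.

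No gene for the receptor, kinases or transcription factors of the pathway passed the test after 1 h. Of 22 genes on the list of receptor, signalling and feedback genes, 21 were tested. Of these edgeR called 0, near its share of 0.42% over all genes tested, and DESeq2 and limma-voom called 0. An unadjusted p under 0.05 was found for 4 of the 21, against 9.26% of all genes tested. Irf1 had 10.4, 10.5 and 10.8 CPM in unstimulated and 10.3, 10.3 and 10.8 CPM in 1 h libraries. The groups overlapped, and the 95% interval of the fold change was 0.91 to 1.08, where the 24 h mean was 221 ± 8.92 CPM (SD, n = 3). Ifngr1, the ligand-binding receptor chain, was at 28.7 ± 1.19 and 26.9 ± 1.05 CPM (SD, n = 3; interval 0.86 to 1.03).

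Cd274 and Ciita lay near their unstimulated level, while Socs1 did not pass the test. Cd274, the gene of the T cell inhibitory ligand PD-L1, had 5.72, 6.17 and 6.54 CPM against 6.31, 6.41 and 5.78 CPM (interval of the fold change 0.86 to 1.17), and its 24 h mean was 62.4 CPM. Ciita, the master regulator of MHC class II, was at 7.48 ± 0.702 and 7.5 ± 0.347 CPM (SD, n = 3; interval 0.87 to 1.15). Socs1, a feedback inhibitor of the JAK kinases, rested on 22, 18 and 23 counts in unstimulated and 46, 30 and 50 counts in 1 h libraries. Its groups did not overlap and its fold change was 1.84 (interval 1.31 to 2.59), but it did not pass the test (edgeR adjusted p = 0.115) except without 1 h replicate 2 (adjusted p = 0.0434).

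**Figure D4:**
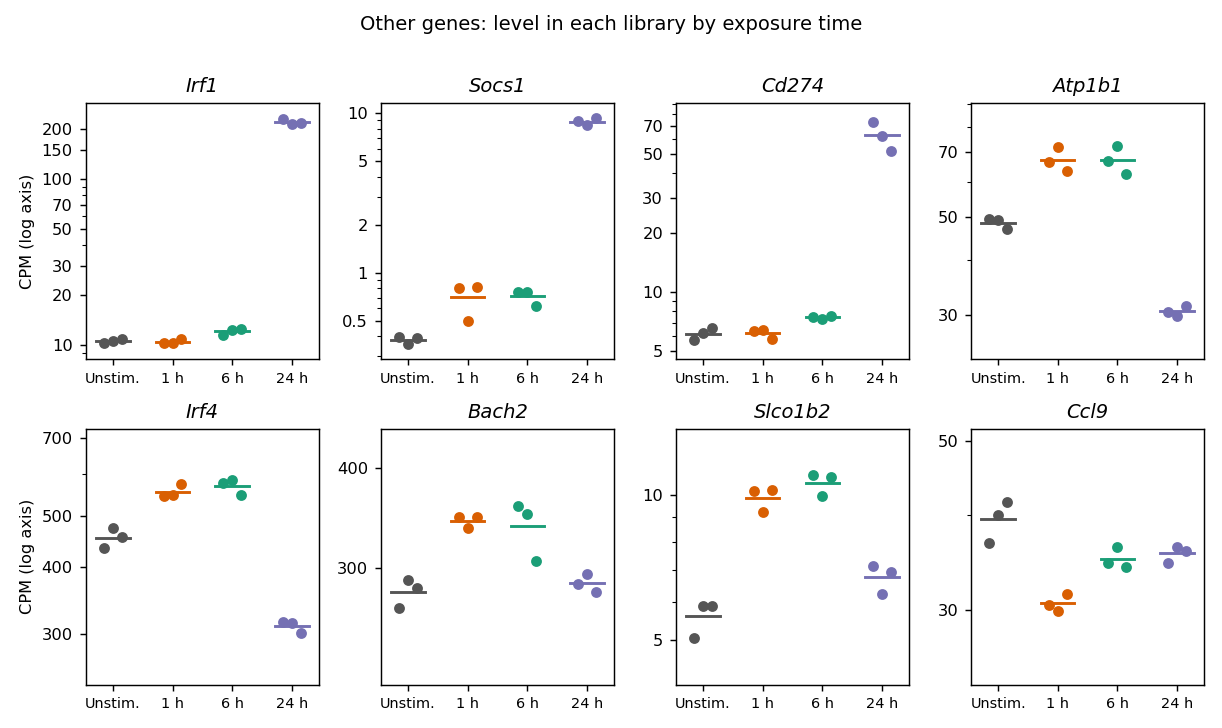
Level of 8 genes in each of the 12 libraries, in CPM on a log axis, by group; points are libraries and bars are means of 3. Irf1, Socs1 and Cd274 have 24 h points far above the others, while the 1 h points of Atp1b1, Irf4, Bach2 and Slco1b2 lie above the unstimulated points, and those of Ccl9 below them.

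The interferon-inducible GTPases, which act on vacuoles that hold pathogens, were mostly at low levels in unstimulated and 1 h cells. Of 22 on the list, 20 were tested, several through their 24 h level alone. Of these, edgeR called 1 higher and 0 lower, against 0.273% and 0.147% of all genes tested. The median log2 fold change of the 20 was 0.09. The riser was Gm1966 (ENSMUSG00000073902.5, chromosome 7, 106596743 to 106604035), an unprocessed pseudogene of the very large GTPases. It had 5.14, 6.51 and 7.25 CPM in unstimulated and 10.6, 10.9 and 11.1 CPM in 1 h libraries, a log2 fold change of 0.78 ± 0.08 (SE; adjusted p = 2.19e-06). Its mean was 16.3 CPM at 6 h, higher than at 1 h by a log2 difference of 0.59 (adjusted p = 2.91e-05), and 465 CPM at 24 h. Reads of the related gene Gvin1, at 2.26 ± 0.36 and 2.66 ± 0.36 CPM (SD, n = 3; adjusted p = 0.525), can be shared with it.

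Gbp2, a guanylate-binding protein, had 24, 10 and 24 counts in unstimulated and 34, 45 and 32 counts in 1 h libraries. The fold change of 1.76 (95% interval 1.29 to 2.41) did not pass the test (edgeR adjusted p = 0.112), but passed by DESeq2 (adjusted p = 0.0484) and with every gene that had a count included (adjusted p = 0.0471). Iigp1, an immunity-related GTPase, had 0, 0 and 2 counts against 8, 0 and 2 counts, while its 3 libraries at 24 h summed to 169388 counts. Tgtp1 had no count in any unstimulated, 1 h or 6 h library and 16901 counts in all at 24 h. Tgtp1 and Tgtp2 are near-identical copies, and Tgtp2 had 8 counts over the unstimulated and 24 over the 1 h libraries.

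Irf4 and Bach2 rose and were called whichever of the 6 libraries was left out. Irf4 (ENSMUSG00000021356.10, chromosome 13, 30749226 to 30766976), which acts in B cell differentiation, had 435, 473 and 457 CPM in unstimulated and 545, 547 and 574 CPM in 1 h libraries, a log2 fold change of 0.29 ± 0.04 (SE; adjusted p = 0.000416 by edgeR). Bach2 (ENSMUSG00000040270.16, chromosome 4, 32238804 to 32586108), a repressor that restrains plasma cell differentiation, had 268, 289 and 283 CPM against 347, 337 and 348 CPM, a log2 fold change of 0.30 ± 0.05 (SE; adjusted p = 0.00179). Neither differed between 6 h and 1 h by the test (adjusted p = 1), and at 24 h both were lower than at 1 h, Irf4 with a log2 difference of -0.84 (adjusted p = 2.22e-15) and Bach2 with -0.26 (adjusted p = 0.000183); of all genes tested, 18.9% differed between 24 h and 1 h, with 10.2% higher and 8.78% lower at 24 h. Ebf1, a factor that sets B cell identity, was the only gene that edgeR called of the 16 B cell markers tested. Over all genes tested, 0.273% were called higher. Of the 16 markers, 9 had a negative log2 fold change, and the median was -0.01. DESeq2 also called Ms4a1 and Bank1, whose log2 fold changes were -0.39 and -0.17. The mean level of Ebf1 was 208 ± 10.7 CPM in unstimulated and 245 ± 8.37 CPM in 1 h libraries (SD, n = 3, edgeR adjusted p = 0.0175). Its call was lost without replicate 1 or 3 of either group (adjusted p = 0.0704 to 0.154).

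Of 10 precursor B cell genes tested, 2 rose and 0 fell, against 0.273% and 0.147% of all genes tested. Their median log2 fold change was 0.08. Rag1, a subunit of the recombinase that joins immunoglobulin gene segments, had 232, 243 and 221 CPM in unstimulated and 334, 327 and 311 CPM in 1 h libraries. The groups did not overlap, with a log2 fold change of 0.48 ± 0.07 (SE; adjusted p = 0.00746 by edgeR), but the call was lost without unstimulated replicate 1 (adjusted p = 0.0619) and without 1 h replicate 1 (adjusted p = 0.0511). Its partner Rag2 was at 53.1 ± 5.0 and 61.2 ± 1.1 CPM (SD, n = 3; adjusted p = 0.112), and DESeq2 called it higher. Cplx2, a complexin, went from 273 ± 4.07 to 309 ± 11.6 CPM (SD, n = 3; adjusted p = 0.0303), and its call was lost without unstimulated replicate 1 or 3 or 1 h replicate 2 or 3 (adjusted p = 0.0856 to 0.249). The surrogate light chain genes Igll1 and Vpreb1 averaged 26.9 and 11.5 CPM in unstimulated and 28.9 and 11.9 CPM in 1 h libraries. Vpreb2 and Vpreb3 were lower in the 1 h libraries, at 0.172 and 86.5 CPM against 0.145 and 79.5 CPM. Of the 10 genes tested, 6 had a positive and 4 a negative log2 fold change.

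Of 19 ion and organic anion transport genes tested, 2 rose and 0 fell by edgeR, against 0.273% and 0.147% of all genes tested. Their median log2 fold change was 0.08, and DESeq2 also called Fxyd5, at -0.26. Atp1b1 (ENSMUSG00000026576.12, chromosome 1, 164437109 to 164458355), the β subunit of the sodium-potassium pump, had 49.4, 49.1 and 46.9 CPM in unstimulated and 66.4, 71.8 and 63.6 CPM in 1 h libraries. It rose by 0.47 ± 0.06 (log2, SE; edgeR adjusted p = 2.14e-05), stood at 67.2 ± 4.95 CPM at 6 h, and at 24 h was at 30.5 ± 0.804 CPM (SD, n = 3), under every other library. Slco1b2 (ENSMUSG00000030236.10, chromosome 6, 141629518 to 141686646), an organic anion transporter, had 5.05, 5.89 and 5.89 CPM against 10.2, 9.23 and 10.3 CPM, a log2 fold change of 0.82 ± 0.10 (SE; adjusted p = 2.14e-05), and 6.76 CPM at 24 h. Cacna1e, the pore subunit of a voltage-gated calcium channel and not on that list, had 4.24, 4.71 and 4.70 CPM against 7.08, 8.04 and 9.08 CPM (log2 0.83 ± 0.11, SE; adjusted p = 7.33e-05). None of these 3 differed between 6 h and 1 h by the test (adjusted p = 1).

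Further rises each lost their call when some library was left out. Cybb, the catalytic subunit of the phagocyte NADPH oxidase, had 19.5, 19.5 and 23 CPM in unstimulated and 28, 27.1 and 26.6 CPM in 1 h libraries (edgeR adjusted p = 0.0025, and 0.0546 without unstimulated replicate 1). Pim1, a survival kinase induced by cytokine receptors, had 33.7, 32.4 and 33.6 CPM against 46.0, 42.0 and 40.8 CPM (adjusted p = 0.00304, and 0.0672 without 1 h replicate 1). Csf1, the macrophage growth factor, had 24.9, 23.2 and 23.7 CPM against 28.6, 29.3 and 30.8 CPM (adjusted p = 0.00786; 0.0584 without unstimulated replicate 3 and 0.0904 without 1 h replicate 3), and stood at 133 CPM at 24 h. Csf1 rose and Ccl9 fell among the 8 cytokine and chemokine genes tested, whose median log2 fold change was 0.12. Over all genes tested, 0.273% rose and 0.147% fell.

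Smaller rises had the same limit. Cysltr1, a leukotriene receptor, went from 142 ± 8.02 to 176 ± 4.32 CPM (SD, n = 3; edgeR adjusted p = 0.0063), and lost its call without replicate 1 or 3 of either group (0.0508 to 0.0762). C1galt1, which extends O-linked sugar chains, went from 189 ± 8.76 to 231 ± 11.4 CPM (SD, n = 3; adjusted p = 0.0055), and lost it without unstimulated replicate 1 or 3 or 1 h replicate 1 (0.0584 to 0.078). Trp53inp1, a stress protein induced by p53, was the 1 gene called of 17 p53 targets, at 185 ± 10.0 and 217 ± 3.34 CPM (SD, n = 3; adjusted p = 0.0384); only the fit without unstimulated replicate 2 kept it among those with 1 library left out (0.0967 to 0.303 in the other 5), and with the GC trend removed its adjusted p was 0.235. By limma-voom the adjusted p of Trp53inp1 was 0.0529. The median log2 fold change of the p53 targets was -0.08, and over all genes tested 0.273% were called higher.

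Of the 21 genes that fell, Ccl9 and Dusp5 were called whichever library was left out. Ccl9 (ENSMUSG00000019122.8, chromosome 11, 83572919 to 83578636), a chemokine that attracts myeloid cells, had 36.7, 40.02 and 41.6 CPM in unstimulated and 30.4, 29.8 and 31.5 CPM in 1 h libraries, a log2 fold change of -0.37 ± 0.06 (SE; adjusted p = 0.00108 by edgeR). Dusp5 (ENSMUSG00000034765.6, chromosome 19, 53529109 to 53542431), a nuclear phosphatase of the kinase ERK, had 103, 101 and 105 CPM against 88.6, 81.5 and 80.5 CPM (-0.30 ± 0.05, SE; adjusted p = 0.00188).

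Of 26 histone genes tested, 2 fell and 0 rose by edgeR, against 0.147% and 0.273% of all genes tested. DESeq2 also called Hist1h2bc, at -0.46. Hist1h1c, a linker histone, had 53.2, 53.3 and 54.8 CPM in unstimulated and 37.5, 43.1 and 43.4 CPM in 1 h libraries (log2 -0.38 ± 0.07, SE; edgeR adjusted p = 0.0033, and 0.0689 without 1 h replicate 1). It was lower again at 6 h than at 1 h, at 32.9 ± 2.31 CPM (SD, n = 3; log2 difference -0.33, adjusted p = 0.0376). Hist2h2be, a core histone with a polyadenylated transcript, had 18, 19.9 and 18.8 CPM against 14.1, 14.4 and 15.7 CPM (adjusted p = 0.0229); among the fits with 1 library left out only that without 1 h replicate 3 kept the call (0.0571 to 0.161 in the other 5). The median log2 fold change of the 26 was -0.20, and it was negative for 20 of them. Most replication-dependent histone transcripts carry no poly(A) tail, and the libraries were made from polyadenylated RNA.

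The largest falls were in genes of low expression. Apold1, an apolipoprotein L domain protein, had 4.56, 4.95 and 5.64 CPM in unstimulated and 2.62, 3.19 and 3.67 CPM in 1 h libraries (log2 -0.68 ± 0.15, SE; edgeR adjusted p = 0.0286), and lost its call without unstimulated replicate 1 or 3 or 1 h replicate 1 or 2 (0.0641 to 0.259). Bfsp2, an intermediate filament protein, had 4.39, 4.35 and 4.08 CPM against 2.83, 2.57 and 2.60 CPM (-0.68 ± 0.15, SE; adjusted p = 0.033), and lost its call in each of the 6 fits (0.0562 to 0.189). Cyth4, an exchange factor for ARF GTPases, had 11.6, 11.3 and 11.7 CPM against 7.35, 7.79 and 9.49 CPM (adjusted p = 0.0104; lost without unstimulated replicate 1 or 3 or 1 h replicate 1 or 2, at 0.0584 to 0.13). In each of these 3 the groups did not overlap.

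Tmem173, Pld4 and Lgmn fell as well. Tmem173, which encodes the DNA-sensing adaptor STING, had 21.2, 19.5 and 22.7 CPM in unstimulated and 16.8, 17.2 and 15.5 CPM in 1 h libraries (edgeR adjusted p = 0.0384). Pld4, a nucleic acid exonuclease of endolysosomes, had 15.5, 15.4 and 15.9 CPM against 12.4, 12.1 and 12.7 CPM (adjusted p = 0.0384). Lgmn, a lysosomal protease, had 84.9, 79.1 and 79.9 CPM against 69.6, 72.0 and 68.9 CPM (edgeR adjusted p = 0.0283). It was the only called gene of the 17 MHC class II presentation genes tested, where 0.147% of all genes tested were called lower. Tmem173, Pld4 and Lgmn kept their call, among the 6 fits with 1 library left out, only without unstimulated replicate 2. Their adjusted p reached 0.264 and 0.19 without unstimulated replicate 3 for Tmem173 and Pld4 and 0.227 without unstimulated replicate 1 for Lgmn. Tmem173 and Pld4 were not called by limma-voom (adjusted p = 0.0678 and 0.0614), and Pld4 was not called with the GC trend removed (0.0727). H2-Aa and Cd74 of that list did not pass the test: H2-Aa was at 32.3 ± 1.4 and 37.0 ± 3.0 CPM and Cd74 at 111 ± 5.6 and 102 ± 2.3 CPM (SD, n = 3; adjusted p = 0.283 and 0.429), and the list had a median log2 fold change of 0.01, with 10 of 17 positive, 7 negative and 6 at an unadjusted p under 0.05.

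Cd36, a scavenger receptor for lipids, had 44.6, 43.5 and 42.2 CPM in unstimulated and 36.8, 33.0 and 34.8 CPM in 1 h libraries (edgeR adjusted p = 0.0169), and lost its call without unstimulated replicate 1 or 1 h replicate 2 or 3 (0.0904 to 0.125). It was the only called gene of 7 myeloid markers tested, where 0.147% of all genes tested were called lower. The summed level of the 5 defining myeloid markers was the higher one after 1 h. The part of other cells in the Cd36 value was not tested. Nr4a1, an early-response nuclear receptor, had 24.9, 23.7 and 26.8 CPM against 19.2, 18.2 and 21.4 CPM (adjusted p = 0.0175; lost without unstimulated replicate 1 or 3 or 1 h replicate 1 or 2, at 0.0829 to 0.169). The homeobox factor Hhex, the melanosome transport protein Mreg and Plekho2, a protein with a lipid-binding pleckstrin homology domain, fell with log2 fold changes of -0.35, -0.31 and -0.25 (adjusted p = 0.0473, 0.0303 and 0.033). They kept their calls, among the 6 fits, only without unstimulated replicate 2 (up to 0.311, 0.249 and 0.231 in the other 5). Hhex also lost its call by limma-voom (adjusted p = 0.0614), with upper-quartile size factors and with a filter of at least 1 CPM in at least 3 libraries. Rdm1, a protein linked to DNA repair, fell by 0.48 on the log2 scale (adjusted p = 0.0175; lost without unstimulated replicate 1 or 1 h replicate 1 or 3, at 0.0782 to 0.135).

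Of the 60 called genes, 51 are protein coding, 30 of them higher and all 21 of those that fell. Among the non-coding models, named after their values were seen, A330076H08Rik on chromosome 7 had the largest fold change, 4.24 (95% interval 2.20 to 8.16, edgeR adjusted p = 0.033). Its mean level was 0.121 ± 0.0219 CPM in unstimulated and 0.522 ± 0.215 CPM in 1 h libraries (SD, n = 3). Its call was lost without replicate 1 or 3 of either group and without unstimulated replicate 2 (0.0764 to 0.258). DESeq2 gave it no adjusted p, and limma-voom did not call it (adjusted p = 0.087). Gm49759, at 46.7 ± 2.54 and 58.4 ± 5.61 CPM (SD, n = 3; adjusted p = 0.0175), lies on the same strand within the glycolysis gene Pkm, which had a log2 fold change of -0.10 (adjusted p = 0.654), and its call was lost without replicate 1 or 3 of either group (0.125 to 0.154). A630072M18Rik lies antisense to Rsbn1l; since the strand setting of the counting is not given in the sources used here, its reads and those of Rsbn1l cannot be told apart.

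Myc, the oncogene of the line, had 1603, 1646 and 1592 CPM in unstimulated and 1669, 1709 and 1810.3 CPM in 1 h libraries (95% interval of the fold change 1.01 to 1.14, edgeR adjusted p = 0.434). Of 32 Myc target and ribosome biogenesis genes tested, edgeR called 0, DESeq2 and limma-voom called 0, and 2 had an unadjusted p under 0.05. Of 36 antiviral interferon-stimulated genes tested, 0 were called by edgeR, DESeq2 or limma-voom, and 4 had an unadjusted p under 0.05. The median log2 fold change was -0.03, with values from -1.47 to 0.90. The filter on low counts covered all 4 groups, so some of the 36 may have passed it through their 24 h level alone. Of 34 cell cycle genes, edgeR and limma-voom called 0 and DESeq2 called Mki67 and Cenpf, with 5 at an unadjusted p under 0.05. The log2 fold change was positive for 17 of the 34 and negative for 17. Of 21 checkpoint, costimulation and adhesion genes, edgeR and limma-voom called 0 and DESeq2 called Lgals9, with 6 at an unadjusted p under 0.05. The log2 fold change was positive for 10 of the 21 and negative for 11. Of 20 endoplasmic reticulum chaperone genes tested, 0 were called by any of the 3 tools, 6 had an unadjusted p under 0.05, and the median was -0.06. Over all genes tested, 9.26% had an unadjusted p under 0.05 and edgeR called 0.42%. DESeq2 called 141 and limma-voom 44 of the 14299 genes.

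In the remaining lists, edgeR, DESeq2 and limma-voom called 0 genes, where edgeR called 0.42% of all genes tested. Of 15 transcripts encoded by the mitochondrial genome, 14 had a positive log2 fold change and the median was 0.08, with 1 at an unadjusted p under 0.05. The median was -0.05 for 21 glycolysis genes, for 24 genes of cholesterol synthesis and uptake and for 19 heat shock and oxidative stress genes, of which 4, 1 and 3 had an unadjusted p under 0.05. It was -0.01 for 16 NF-κB targets and 23 cell death genes and -0.03 for 16 genes of the integrated stress response, with 1, 2 and 0 at an unadjusted p under 0.05. Of 8 Fc receptor and IgG-binding genes, which had a median of 0.00, 1 had an unadjusted p under 0.05. Of the 18 T and NK cell and the 15 stromal, endothelial and erythroid markers, 3 and 2 passed the filter on low counts, and 0 had an unadjusted p under 0.05.

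**Figure D5:**
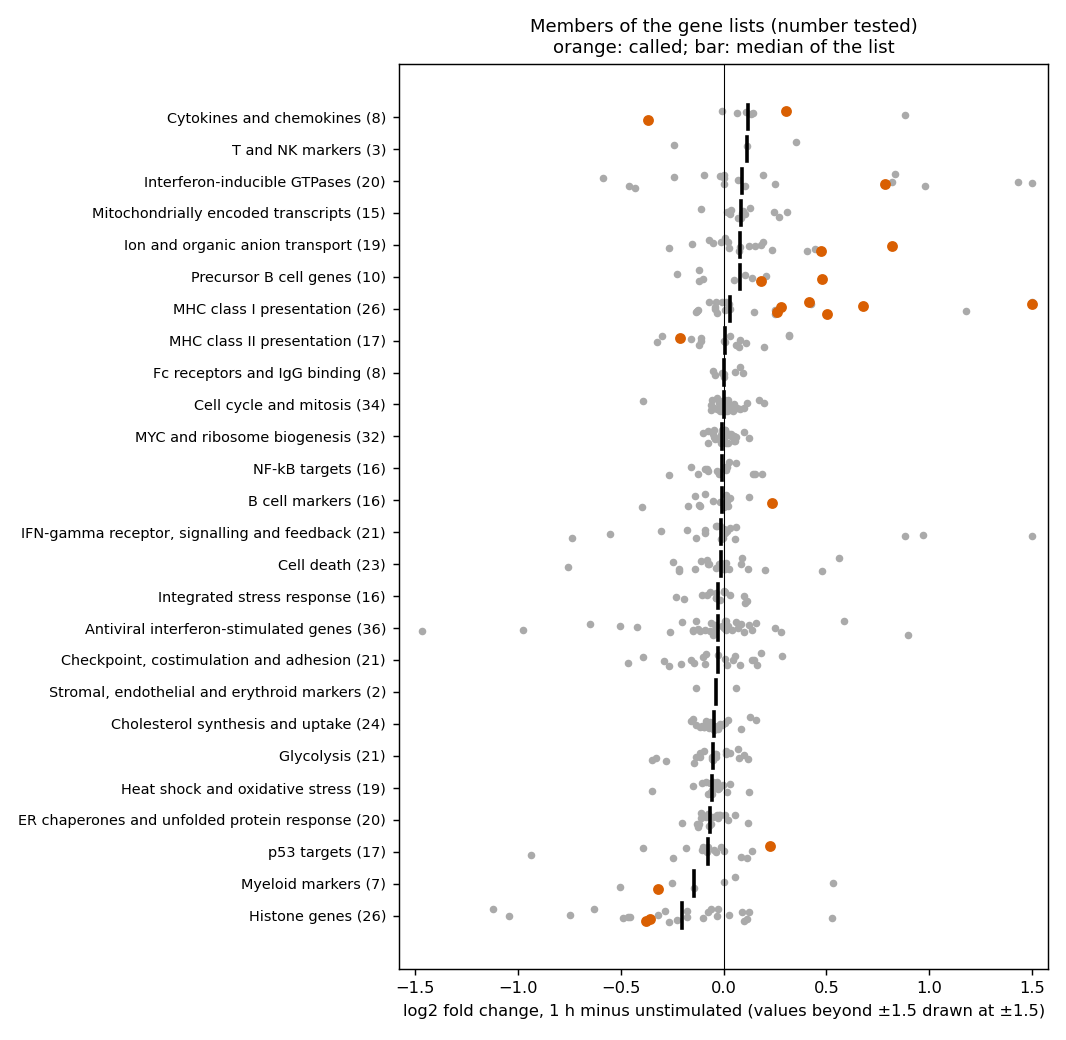
Log2 fold change (1 h minus unstimulated) of each tested member of 26 gene lists, with the number tested in brackets; orange points are called genes and bars are medians of the lists, which are ordered by median. The class I list has 6 called members to the right of 0 and a median of 0.03, and the histone list has the lowest median, -0.20.

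Called genes differed in length and base composition. The median exon length was 5410 bases for genes called higher and 3462 bases for genes called lower, against 3709 bases for all genes tested, and the median GC content was 43.6%, 51.8% and 49.3%. Across genes, which are not independent replicates, the log2 fold change had a Spearman rho of 0.16 with exon length and -0.20 with GC content. With the trend on exon length removed, 34 genes were called higher and 35 lower, beside 39 and 21; of the original calls, 31 of the 39 and all 21 remained. With the trend on GC content removed, 48 of the 60 remained. The 6 class I calls numbered 6 under both, with B2m lost and Tap1 gained when the GC trend was removed.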

How the data were processed

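Polyadenylated RNA of 12 samples was prepared as stranded libraries and sequenced as 125 bp paired reads, per the labels' protocols. The authors deposited raw counts per gene; featureCounts 1.4.3-p1, STAR 2.5.2a, Picard and the mm10 build are named in the submitters' processing notes, while neither the annotation release nor the strand setting is given in the sources used here. Columns were matched to samples by their headers. Of 53379 gene identifiers, 53274 had a symbol, and coordinates, 1-based on GRCm38, came from GENCODE M21. Among genes with few counts, 69.9% to 73.9% of counts were even, so both mates of a pair were probably counted. Library totals were 49440358 to 67096610 counts.

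After filterByExpr and TMM scaling, a single edgeR 4.0.16 model (R 4.3.3; quasi-likelihood F test, 8 residual degrees of freedom) covered the 4 groups of 3 samples. A gene is called where its p, adjusted over all 14299 genes (Benjamini-Hochberg), is under 0.05. CPM are TMM-scaled counts, and intervals are at 95%. No pair of libraries agreed within sampling noise, so none was counted as a repeat. Since both mates of a pair were probably counted, that noise is uncertain. Whether samples of a group are technical repeats is therefore not known. The fit was tested on simulated data.

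Named genes are 16 taken whatever their result, up to 15 of the largest rises and falls among called genes of at least 1 CPM with groups that do not overlap and no predicted-gene name, and every called member of 26 lists with 583 members. The members, the lists and the rule were chosen with earlier results of these data known. The result of 1 gene the rule takes is not reported here. Alternatives were DESeq2 1.42.0, limma-voom (limma 3.58.1), other size factors, other filters, the 6 libraries alone, a replicate block, halved counts, removal of a trend on exon length or GC content, other thresholds, and each library left out.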

Additional observations from a re-analysis of the deposited data

Results flagged for a closer look

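The effects of the 1 h and the 6 h exposure, each taken against the same unstimulated libraries, differed for 8 of the named genes in the direct test of 6 h against 1 h (edgeR, adjusted p under 0.05). Of all genes tested, 0.0979% differed in that test. The log2 difference, 6 h minus 1 h, was 1.30 for Gbp2, 0.69 for H2-Q4, 0.66 for H2-K1, 0.59 for Gm1966, 0.45 for H2-D1, 0.36 for Tap1 and 0.33 for B2m, all higher at 6 h. It was -0.33 for the linker histone gene Hist1h1c, which was lower at 6 h.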

How the results depend on the processing

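The number of genes called after 1 h, 60, was 141 by DESeq2, 174 with every gene that had a count included, 104 with the 6 libraries fitted alone, 21 at an adjusted p under 0.01 and 3 with a log2 fold change of at least 1, and ran from 15 to 114 with 1 library left out. Under the other settings it was between 44 and 78. The 6 class I calls numbered 4 to 7 with 1 library left out. The 5 class I calls of 6 h against 1 h were 9 by DESeq2 and 4 to 6 with 1 library left out; leaving out the 6 h libraries was chosen after seeing the data. Of 881 values of 49 named genes under the alternatives, 752 kept their direction and side of the threshold, 120 lost the call, 9 gained it and 0 reversed. Whether replicate numbers pair the samples is not known. Deviations of same-numbered unstimulated and 1 h libraries correlated at 0.0112, -0.0656 and -0.0192. The 6 h and 24 h groups were not compared in this way, so these values cannot decide it. With a replicate block 78 genes were called, among them all 60, so it ended none of these calls, and the class I counts were 8 and 6. Depth limits what can be said of Socs1, Gbp2, Iigp1 and the H2-Q genes, which rest on few counts, and intervals cover only the spread between 3 samples a group.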
